A study of Mus musculus with 6 samples.

Results

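The 40 genes described here run the cell division cycle: 21 mitotic genes, 12 genes of DNA synthesis, and 7 genes of the decision to enter the cycle. They were chosen by name, and 39 of the 40 had a named probe set among the 25206 of the array. Ccnb1 was not analysed here. RNA came from peritoneal macrophages of C57BL/6J mice, either Tet2-/- (lacking Tet2, an enzyme that oxidises 5-methylcytosine) or wild-type littermates, with 3 arrays per genotype numbered 4, 5 and 6. All mice had received 1 mL of 4% thioglycollate, an irritant that draws monocytes into the cavity, 4 days earlier, and all cells were kept in culture without a stimulus for 10 h before lysis. The arrays are titled as biological replicates. The labels name neither the deleted part of Tet2 nor the age or sex of the mice, nor whether animals were pooled, so the spread behind each p-value is that of the samples as prepared. Genotypes were read from the sample titles. A second label of the same samples names the opposite genotype for 4 of the 6, so each direction below refers to the titles.

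Elicited macrophages are mostly non-dividing cells descended from monocytes, while resident macrophages of the cavity can renew themselves by division. A cell that enters the cycle passes a G1 decision controlled by D cyclins, E cyclins, the CDK inhibitor p21 and E2F factors. It then copies its DNA with the MCM helicase, the sliding clamp PCNA and deoxynucleotides made by ribonucleotide reductase, and finally segregates its chromosomes with mitotic cyclins, kinases and spindle motors. Transcripts of the synthesis genes peak around S phase and those of the mitotic genes in G2 and M. In a bulk sample, fewer dividing cells and less RNA per dividing cell cannot be told apart.

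The mitotic and synthesis genes differ in promoter sequence, which the choice of members did not use. The CHR, an element bound by MuvB complexes in genes of late cell cycle phases, was searched as TTTGAA or TTCGAA. The E2F element of S-phase genes was searched as TTNNCGC with each N being C or G, and both strands were read. Windows ran from 250 bases before to 50 bases after each RefSeq start (GRCm38.p6), and a gene counted if any of its windows held the letters. Of 16 measured mitotic members with a window, 13 (81.2%) held a CHR word and 2 (12.5%) an E2F word. Of the 8 replication members with a window (Mcm2, Mcm3, Mcm5, Mcm6, Mcm7, Rrm1, Rrm2 and Pcna), 6 (75%) held an E2F word and 2 (25%) a CHR word. Over 17492 protein-coding genes the shares were 20.2% for CHR and 13.7% for E2F. The CCAAT box, searched as CCAAT, was in 14 of the 16 mitotic and 8 of the 8 replication windows, against 42.3% of coding genes. The E2F word TTGGCGC read on the other strand ends in CCAA, so CCAAT and E2F matches can overlap. A match describes letters and is not evidence of binding.

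The windows below are those of the 3 mitotic and 2 replication members with the largest positive difference between genotypes among members whose single window held the motif of their class. They are shown so that the elements can be read in place. Capitals mark CHR words in Kif11, Top2a and Ccnb2 and E2F words in Mcm6 and Mcm5, and adjoining matches run together. The windows are Kif11 at chr19:37376132-37376431 (plus strand), Top2a at chr11:99024140-99024439 (minus), Ccnb2 at chr9:70421505-70421804 (minus), Mcm6 at chr1:128359656-128359955 (minus) and Mcm5 at chr8:75109259-75109558 (plus), each 5' to 3' on the strand of its gene.
Kif11: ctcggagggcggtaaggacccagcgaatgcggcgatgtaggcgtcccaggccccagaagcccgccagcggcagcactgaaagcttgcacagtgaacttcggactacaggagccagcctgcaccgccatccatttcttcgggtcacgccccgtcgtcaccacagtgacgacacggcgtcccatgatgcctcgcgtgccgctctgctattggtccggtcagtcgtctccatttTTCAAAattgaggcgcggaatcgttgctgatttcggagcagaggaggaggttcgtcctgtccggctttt
Top2a: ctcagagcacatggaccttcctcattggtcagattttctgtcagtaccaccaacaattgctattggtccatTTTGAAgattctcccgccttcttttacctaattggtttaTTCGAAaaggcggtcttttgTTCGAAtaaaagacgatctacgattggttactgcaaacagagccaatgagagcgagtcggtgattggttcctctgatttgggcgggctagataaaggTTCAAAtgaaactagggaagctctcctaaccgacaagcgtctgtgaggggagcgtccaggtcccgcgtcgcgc
Ccnb2: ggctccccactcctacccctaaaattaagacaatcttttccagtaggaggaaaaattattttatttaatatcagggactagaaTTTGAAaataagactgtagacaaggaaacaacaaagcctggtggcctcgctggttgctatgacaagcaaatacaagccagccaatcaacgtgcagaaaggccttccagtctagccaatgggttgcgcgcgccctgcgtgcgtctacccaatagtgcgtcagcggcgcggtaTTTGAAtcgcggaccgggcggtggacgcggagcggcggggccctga
Mcm6: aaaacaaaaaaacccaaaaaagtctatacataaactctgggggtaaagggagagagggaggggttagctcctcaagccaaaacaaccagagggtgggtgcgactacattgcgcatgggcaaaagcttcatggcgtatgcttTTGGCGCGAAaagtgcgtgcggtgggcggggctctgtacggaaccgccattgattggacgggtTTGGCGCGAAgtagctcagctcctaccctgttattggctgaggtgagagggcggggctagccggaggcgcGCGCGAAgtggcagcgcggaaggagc
Mcm5: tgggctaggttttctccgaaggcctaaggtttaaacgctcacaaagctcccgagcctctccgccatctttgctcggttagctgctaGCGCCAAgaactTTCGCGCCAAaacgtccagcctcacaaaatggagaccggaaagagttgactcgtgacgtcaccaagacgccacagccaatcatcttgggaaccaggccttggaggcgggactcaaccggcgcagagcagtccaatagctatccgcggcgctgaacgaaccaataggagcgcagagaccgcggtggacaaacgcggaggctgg
The only CHR word of Kif11 and the last of Top2a lie just ahead of the start, and the last of Ccnb2 just after it. The remaining CHR words of Top2a and Ccnb2 lie further upstream, those of Top2a between its 6 CCAAT matches.

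**Figure D1:**
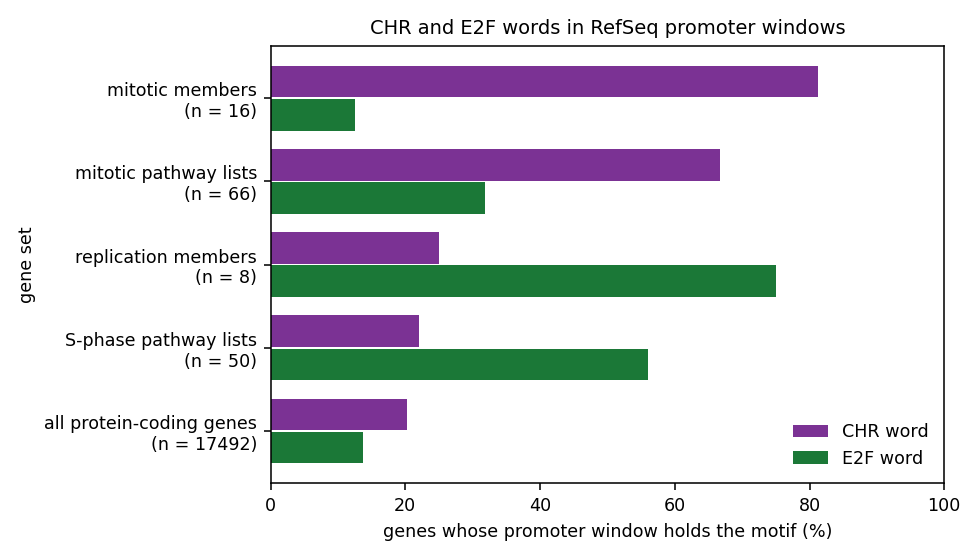
Percent of genes (horizontal axis) whose RefSeq promoter window holds a CHR word (purple) or an E2F word (green), by gene set. CHR words were in 81.2% of mitotic and 25% of replication members, and E2F words in 12.5% and 75%.

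Cell cycle genes outside the 40 were searched in the same way. CHR words prevailed in mitotic and E2F words in S-phase lists. Of 66 genes with a window in lists of kinetochore, condensin, spindle, cytokinesis and mitotic entry genes, 66.7% held a CHR word and 31.8% an E2F word. Of 50 genes of origin licensing, replication forks, nucleotide supply and S-phase chromatin, 22% held a CHR word and 56% an E2F word. Cytokinesis genes had the CHR in 5 of 6 windows, and replication fork genes the E2F word in 13 of 19. Condensin and cohesion genes held both often, CHR in 77.8% and E2F in 66.7% of 9 windows.

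Between genotypes, all 20 measured mitotic members had a higher mean in the arrays labelled Tet2-/-, against 49.2% of all probe sets with a positive difference, yet none passed the test. The median difference of the 20 was 0.34 on the log2 scale (range 0.02 to 0.77), beside 0.00 over all probe sets. Limma's moderated test, with Benjamini-Hochberg adjustment over all probe sets, called 0 of 39 members and 0% of the array at an adjusted p of 0.05. Every member had an adjusted p of 0.998. At an unadjusted p under 0.05, 3 mitotic members (Kif11, Kif23 and Ccna2) were higher and 0 lower, beside 1.71% and 1.9% of all probe sets. In 6 of 20 every Tet2-/- array lay above every wild-type array, beside 3.33% of all probe sets. Some of these 6 were low: Birc5 exceeded the array median on 0 arrays, Bub1 on 1 and Cenpf on 2. The members were picked with earlier results of these arrays in view, so these shares describe the list.

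**Figure D2:**
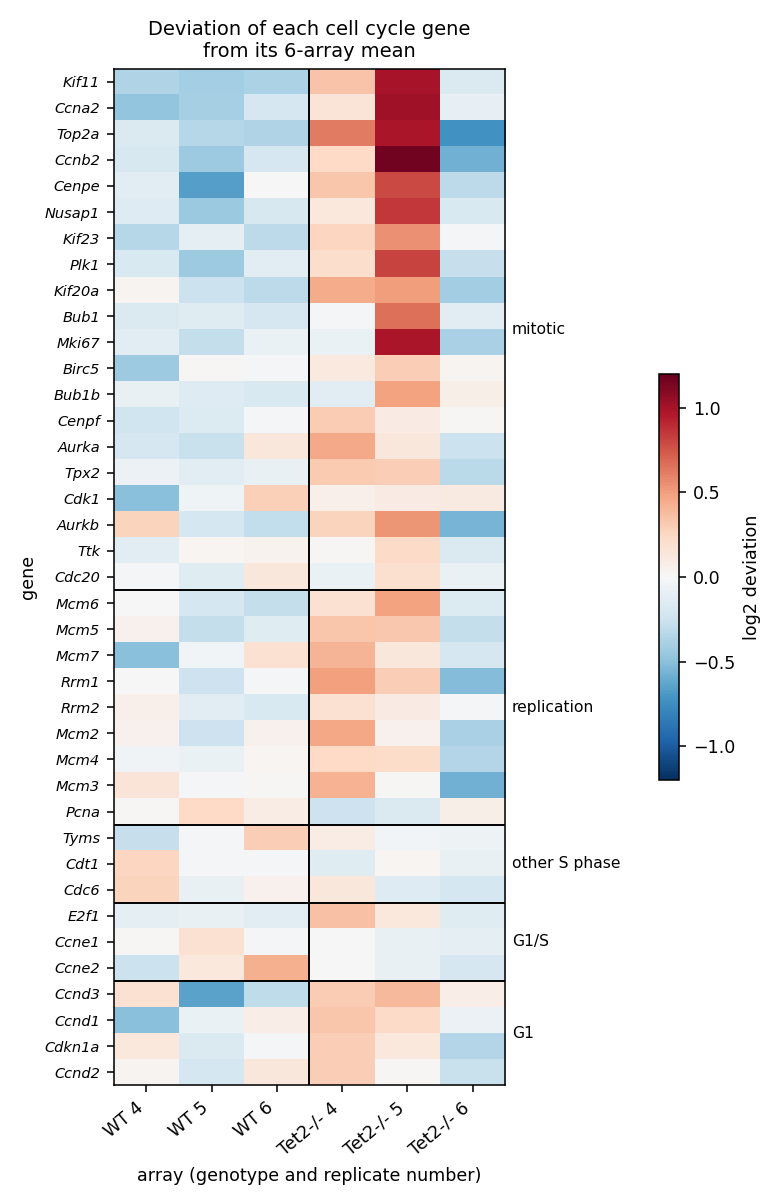
Log2 deviation of each of the 39 measured genes (rows, by class) from its own mean over the 6 arrays (columns), red above and blue below. The mitotic block is reddest in Tet2-/- replicate 5, and the replication block in Tet2-/- replicate 4. The replication block is bluest in Tet2-/- replicate 6, where its median is -0.29.

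The genotype difference rested on replicates 4 and 5 of the Tet2-/- group. As a deviation from each gene's 6-array mean, the mitotic median stood at -0.17, -0.23 and -0.16 in wild-type replicates 4, 5 and 6, and at 0.22, 0.54 and -0.18 in the same Tet2-/- replicates. Replicate 6 therefore lay within the wild-type range. Against the highest wild-type array of each gene, replicate 5 was above in 18 of 20 mitotic members (22.2% of all probe sets), replicate 4 in 14 (24.3%) and replicate 6 in 7 (34.2%). The mitotic median was 0.20 without Tet2-/- replicate 5, with 16 of 20 above zero, and 0.56 without replicate 6, with 20 of 20. Leaving out replicate 6 put 15 of 20 higher at an unadjusted p under 0.05, beside 4.96% of all probe sets higher at that p. Leaving out replicate 5 put 1 of 20 higher at that p, beside 1.82%. Without replicate 6, 0 of the 20 passed, beside 0.0754% of all probe sets, and their smallest adjusted p was 0.0574, for Top2a (limma). That array also had the highest median of the 6, 2.93 against 2.77 to 2.82, and the narrowest interquartile range, 2.99 against 3.16 to 3.33. Its part in the result was not tested.

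Of the 20, the spindle motor Kif11 had the largest difference. Kif11, the kinesin that pushes spindle poles apart, read 2.99, 2.94 and 2.97 in wild-type replicates 4, 5 and 6 and 3.69, 4.34 and 3.18 in the Tet2-/- ones. No wild-type array reached the lowest Tet2-/- array, and the difference of 0.77 had a 95% interval of 0.19 to 1.35 (limma, unadjusted p = 0.0146, adjusted p = 0.998). Kif23, a kinesin of the central spindle, read 2.93, 3.16 and 2.96 against 3.53, 3.82 and 3.25, a difference of 0.52 (interval 0.13 to 0.90). Its groups were also apart, with replicate 6 only just above the wild-type values. Kif20a, a kinesin of cytokinesis, read 3.91, 3.62 and 3.56 against 4.32, 4.38 and 3.46. Here replicates 4 and 5 were nearly level and replicate 6 was the lowest array of all. Nusap1, which bundles spindle microtubules, read 3.86, 3.57 and 3.82 against 4.14, 4.86 and 3.83, and Tpx2, which activates Aurora A on the spindle, differed by 0.20.

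Mitotic cyclins showed the same arrays on top. Ccna2, cyclin A2 of S and G2 phase, read 4.30, 4.37 and 4.57 in wild-type and 4.93, 5.79 and 4.67 in Tet2-/- arrays. The groups did not overlap and differed by 0.72 (interval 0.12 to 1.31). Ccnb2, cyclin B2, read 4.67, 4.42 and 4.66 against 5.10, 6.02 and 4.28, so replicate 5 alone was 1.44 above the wild-type mean while replicate 6 was below every wild-type array. Ccnb2 has an annotated pseudogene, and whether its probes also match that copy was not examined. Cdk1, the kinase both cyclins bind, read 3.79, 4.24 and 4.58 against 4.35, 4.39 and 4.40. The 3 Tet2-/- values of Cdk1 were close to each other and inside the wild-type range, unlike its cyclins.

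Proliferation markers followed replicate 5. Mki67, which coats mitotic chromosomes and marks cycling cells, read 4.67, 4.52 and 4.72 in wild-type and 4.72, 5.78 and 4.41 in Tet2-/- arrays. Only replicate 5 stood out, by 1.14 over the wild-type mean, and without it the difference of 0.33 became -0.072. Top2a, the topoisomerase that untangles sister chromatids, read 4.17, 4.00 and 3.99 against 4.97, 5.33 and 3.62. Replicates 4 and 5 were both above wild-type for Top2a and replicate 6 below it, so the difference of 0.59 had an interval from -0.25 to 1.43. Birc5, a subunit of the chromosomal passenger complex, was low on every array, under the array median in 6 of 6, and differed by 0.30.

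Mitotic kinases, kinetochore and checkpoint genes differed by 0.02 (Cdc20) to 0.54 (Cenpe). Plk1, a kinase of mitotic entry, read 4.15, 3.90 and 4.21 in wild-type and 4.54, 5.14 and 4.06 in Tet2-/- arrays, a difference of 0.49. Aurka, the centrosomal Aurora kinase, read 3.86, 3.79 and 4.20 against 4.52, 4.20 and 3.80, with replicate 4 on top. Aurkb, the kinase of the chromosomal passenger complex, read 4.65, 4.17 and 4.09 against 4.65, 4.91 and 3.83. Its replicate 5 was above and its replicate 6 below every wild-type array. Bub1 and Bub1b, checkpoint kinases of the kinetochore, differed by 0.35 and 0.29. For both, replicate 5 (3.35 and 3.56) lay apart from the remaining arrays, which ran from 2.49 to 2.68 for Bub1 and from 2.89 to 3.15 for Bub1b. Cenpe, a kinetochore motor, read 3.00, 2.48 and 3.13 against 3.47, 3.93 and 2.82, and Cenpf, a kinetochore matrix protein, differed by 0.28 with its groups narrowly apart. Cdc20, which activates the anaphase-promoting complex, and the checkpoint kinase Ttk had the smallest differences, 0.02 and 0.05.

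**Figure D3:**
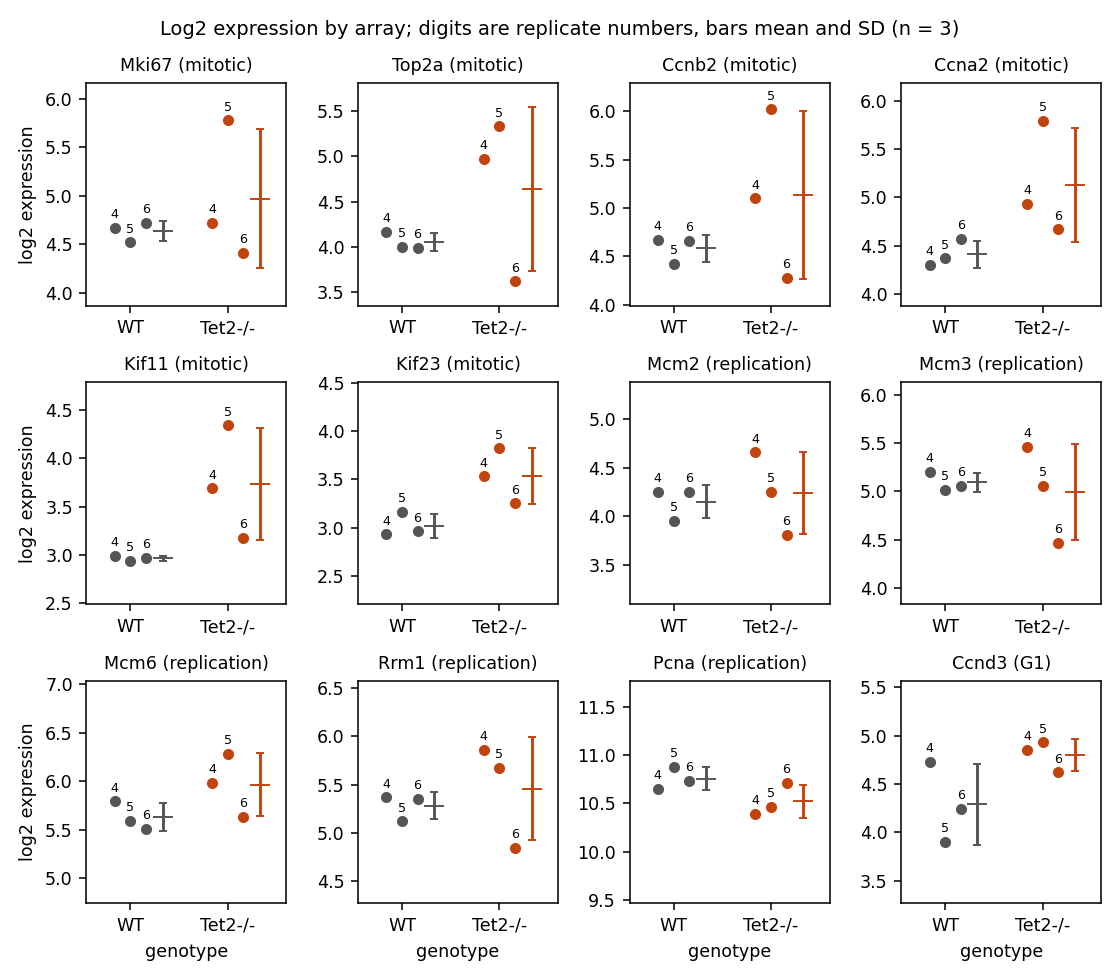
Log2 expression (vertical axes, each panel with its own range) of 12 genes in the 3 wild-type (grey) and 3 Tet2-/- (orange) arrays, digits giving replicate numbers and bars the mean and SD. Replicate 5 is the top Tet2-/- array for the mitotic genes shown, while replicate 4 is the top one for Mcm2, Mcm3 and Rrm1.

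Replication genes differed less between genotypes than mitotic genes, and in another array. The 9 genes of the Mcm, Rrm and Pcna group had a median difference of 0.17 (range -0.23 to 0.33), with 7 higher and 2 lower. By limma 0 of 9 passed at an adjusted p of 0.05, as did 0% of all probe sets. At an unadjusted p under 0.05, 0 of 9 were called, beside 1.71% of all probe sets higher and 1.9% lower. In 0 of 9 were the groups apart, beside 3.33% of all probe sets with every Tet2-/- array above and 4.07% below. With 9 genes, counts of 0 do not set this group apart from the array. Without Tet2-/- replicate 4 the median was -0.02 and 4 of 9 were above zero, and without replicate 6 it was 0.31 with 8 of 9. Leaving out replicate 6 also put 3 of 9 higher and 1 lower at an unadjusted p under 0.05. The shares of all probe sets at that p were then 4.96% higher and 4.91% lower. The smallest adjusted p of the 9 was then 0.359 (limma). Adding Tyms, Cdc6 and Cdt1 gave a median of 0.078. Per array, the median deviation was 0.013, -0.13 and 0.015 in wild-type replicates and 0.34, 0.14 and -0.29 in Tet2-/- replicates 4, 5 and 6.

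The MCM helicase subunits, which load on origins and unwind DNA, had Tet2-/- replicate 4 as their highest array in 5 of 6 cases. Over all probe sets that array was the highest in 13.6%. Mcm2 read 4.25, 3.95 and 4.25 in wild-type and 4.66, 4.25 and 3.81 in Tet2-/- arrays. Mcm3 read 5.20, 5.02 and 5.06 against 5.46, 5.06 and 4.47, which gave a difference of -0.10 because the low value of replicate 6 outweighed the high one of replicate 4. Mcm7 read 4.54, 5.01 and 5.22 against 5.45, 5.18 and 4.84, and wild-type replicate 4 was its lowest array. For Mcm4 and Mcm5, replicates 4 and 5 were level, at 5.30 and 5.28 and at 4.83 and 4.82. Mcm6 was the exception, at 5.79, 5.59 and 5.51 against 5.98, 6.28 and 5.63, with replicate 5 on top and the largest difference of the 9, 0.33 (interval -0.08 to 0.75). In each of the 6, replicate 4 was above every wild-type array and replicate 6 was not. Over all probe sets, replicate 4 was above every wild-type array in 24.3% and replicate 6 in 34.2%.

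Ribonucleotide reductase makes deoxynucleotides from a large subunit, Rrm1, and a small one, Rrm2. Rrm1 read 5.37, 5.12 and 5.35 in wild-type and 5.86, 5.67 and 4.85 in Tet2-/- arrays, a difference of 0.18 whose interval ran from -0.38 to 0.74. Replicates 4 and 5 were above and replicate 6 below all wild-type arrays. Rrm2 read 4.61, 4.42 and 4.37 against 4.74, 4.65 and 4.53, with a narrower spread. Pcna, the polymerase clamp, went the other way from most members, at 10.65, 10.88 and 10.73 against 10.39, 10.46 and 10.71. Replicates 4 and 5, which were high for Mcm genes, were the lowest arrays for Pcna, and the difference of -0.23 had an interval of -0.56 to 0.09. Pcna has 2 annotated pseudogenes, and which copies its probes match was not examined.

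Set side by side, the mitotic median exceeded the replication median by 0.17 in the genotype difference, and this gap was uneven over arrays. It was -0.19, -0.10 and -0.17 in wild-type replicates 4, 5 and 6, and -0.11, 0.40 and 0.11 in Tet2-/- replicates 4, 5 and 6. Replicate 4 thus had a gap in the wild-type range, with both classes high, and replicate 5 had its excess in mitotic genes. Replicate 5 was above replicate 4 in 17 of 20 mitotic and 2 of 9 replication members, beside 46.3% of all probe sets. With arrays centred on their medians these counts were 18 and 4, and after quantile normalization 17 and 3. Without replicate 4 the genotype gap was 0.44, and without replicate 5 it was 0.12. A score over picked members has no test here, so the gap is a description of 6 arrays.

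**Figure D4:**
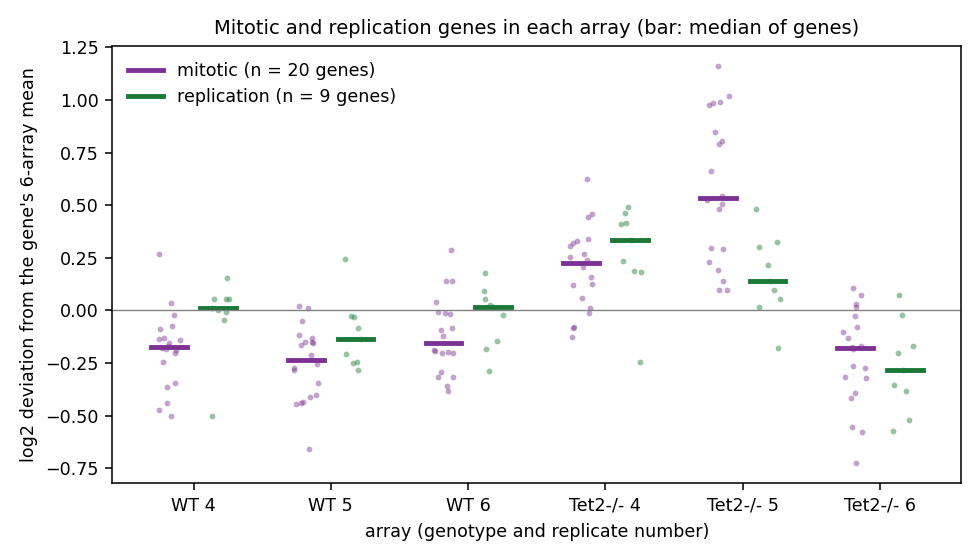
Log2 deviation from each gene's 6-array mean (vertical axis) in each array (horizontal axis) for 20 mitotic (purple) and 9 replication genes (green), points being genes and bars medians. In Tet2-/- replicate 5 the mitotic bar is at 0.54 and the replication bar at 0.14, and in replicate 4 they are at 0.22 and 0.34.

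Spread within the Tet2-/- group was larger than within wild-type for 18 of 20 mitotic and 7 of 9 replication members, beside 63.6% of all probe sets. For Kif11 the SD was 0.025 in wild-type and 0.58 in Tet2-/- arrays (n = 3 each). Its wild-type values, 2.94 to 2.99, lay little above the wild-type array medians of 2.77 to 2.82. For Ccnb2 it was 0.14 and 0.87, and for Top2a 0.10 and 0.90. Cdk1 was the reverse, at 0.40 and 0.026.

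The other 3 S-phase members all had differences below zero. Tyms, which makes thymidylate, read 5.19, 5.45 and 5.76 in wild-type and 5.55, 5.43 and 5.40 in Tet2-/- arrays, a difference of -0.0067. Tyms has an annotated transcribed pseudogene. Cdc6 and Cdt1, which load the MCM helicase, differed by -0.16 and -0.14, with overlapping groups. Of the G1/S genes, the E cyclins Ccne1 and Ccne2 differed by -0.12 and -0.20. E2f1, the activating E2F factor, read 4.25, 4.27 and 4.23 against 4.71, 4.49 and 4.22. It was highest in replicate 4 and at the wild-type level in replicate 6.

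Among G1 regulators, the D cyclins, which bind CDK4 and CDK6, differed to unequal degrees. Ccnd3 read 4.73, 3.90 and 4.24 in wild-type and 4.85, 4.93 and 4.62 in Tet2-/- arrays. The difference of 0.51 had an interval of 0.03 to 0.99 (limma, unadjusted p = 0.0383, adjusted p = 0.998) and was 0.315 without wild-type replicate 5, its lowest array. Ccnd3 also has an annotated pseudogene. Ccnd1 read 3.63, 4.05 and 4.21 against 4.46, 4.36 and 4.06, with overlapping groups, and Ccnd2 differed by 0.03. Cdkn1a, which encodes the CDK inhibitor p21, read 8.54, 8.24 and 8.40 against 8.71, 8.54 and 8.06. Its difference was 0.04 (interval -0.38 to 0.46), and replicate 6 was its lowest array as for Rrm1, Mcm2, Mcm3 and Mcm4.

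Other genes of the cycle, 191 measured in 13 lists, showed 0 members past the adjusted threshold by limma. Over all probe sets, 49.2% had a positive difference, and at an unadjusted p under 0.05 1.71% were higher and 1.9% lower, the shares to read beside the counts of each list. The cytokinesis, spindle, and condensin and cohesion lists had the 3 highest medians. Cytokinesis genes had a median difference of 0.46 (6 of 6 higher, 2 at an unadjusted p under 0.05), with Anln, an actin scaffold of the cleavage furrow, at 0.56 and Ect2, the activator of RhoA there, at 0.48. Spindle genes had 0.29 (16 of 20 higher, 6 at an unadjusted p under 0.05), led by the centriole kinase Plk4 at 0.64 and the depolymerase Kif2c at 0.56. Of the 20 spindle genes, 6 were below the array median on every array, as were 5 of the 23 kinetochore genes. Over all 25206 probe sets, 11284 were. Condensin and cohesion genes had 0.22 (12 of 12 higher, 3 at that p), with separase, Espl1, at 0.50 and sororin, Cdca5, at 0.47. Kinetochore genes had 0.13 (15 of 23 higher, 3 at that p), among them the scaffold Knl1 at 0.50 and the centromeric histone Cenpa at 0.49. Cytokinesis genes repeated the array pattern, with medians of 0.45, 0.52 and -0.29 in Tet2-/- replicates 4, 5 and 6 against -0.14, -0.35 and -0.08 in wild-type. Kinetochore genes did not: their medians stayed between -0.16 and 0.08 on all 6 arrays.

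S-phase lists stayed near the background median of 0.00. Origin licensing genes had 0.07 (12 of 18 higher, 1 at an unadjusted p under 0.05), with the GINS subunit Gins1 at 0.32 and Mcm10, which activates the helicase, at 0.26. Replication fork genes had 0.03 (12 of 23 higher, 1 at that p), although Pold1, the catalytic subunit of polymerase delta, differed by 0.38 and the clamp loader Rfc5 by 0.22. Nucleotide supply genes had 0.01 (6 of 11 higher), with the dUTPase Dut at 0.23 and Shmt1 at -0.22. S-phase chromatin genes had 0.11 (6 of 9 higher), including the histone chaperone Asf1b and the hemimethylated-DNA reader Uhrf1, both at 0.22. The small genotype difference of the Mcm genes was therefore not shared by fork genes as a list. Fork medians per array were 0.14, 0.02 and -0.16 in Tet2-/- replicates 4, 5 and 6, and -0.10, 0.105 and 0.003 in wild-type ones. The order of the Tet2-/- arrays was that of Mcm2 to Mcm7, whose medians were 0.37, 0.18 and -0.32.

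**Figure D5:**
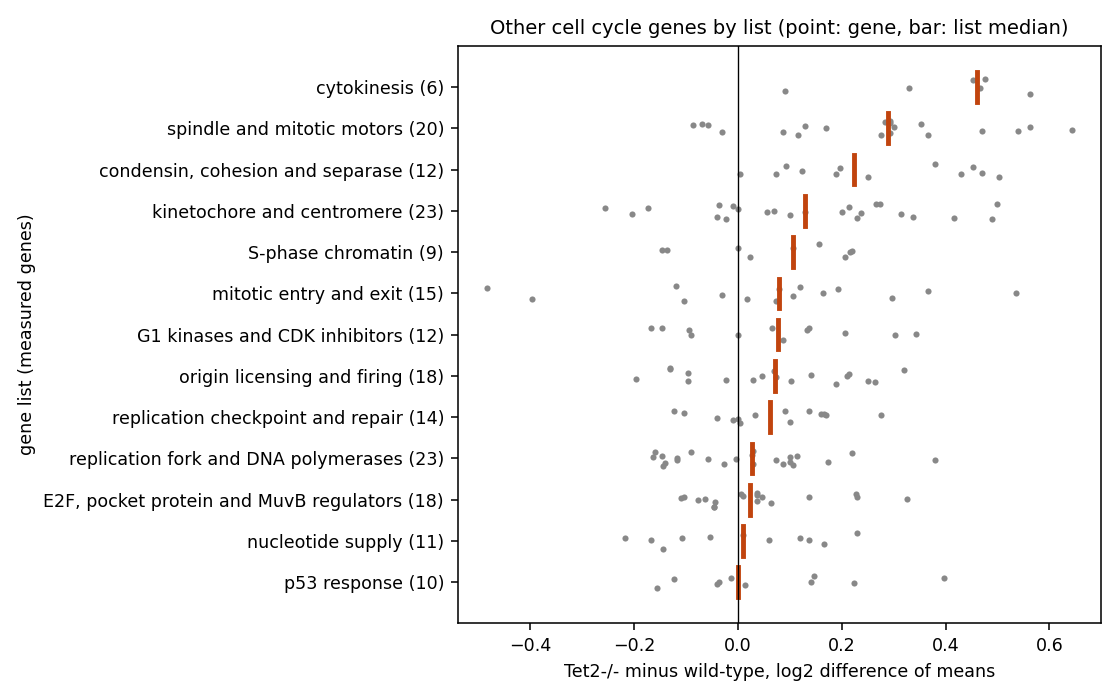
Log2 difference of means, Tet2-/- minus wild-type (horizontal axis), for the genes (points) and medians (bars) of 13 other cell cycle lists, with the number of measured genes in brackets. Medians run from 0.00 for p53 response genes to 0.46 for cytokinesis genes.

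Regulator lists were near zero as well. E2F, pocket protein and MuvB genes had a median of 0.02 (11 of 18 higher, 1 at an unadjusted p under 0.05), with the E2F partner Tfdp2 at 0.33 and E2f3 at 0.23. G1 kinases and CDK inhibitors had 0.08 (7 of 12 higher), with the inhibitor p18, Cdkn2c, at 0.34 and the phosphatase Cdkn3 at 0.30. Checkpoint and repair genes had 0.06 (9 of 14 higher), with the kinase Atr at 0.28 and its activator Topbp1 at 0.17. The p53 response had 0.00 (5 of 10 higher, 1 at that p), with Sesn1, a stress-induced inhibitor of mTORC1, at 0.40 and Phlda3 at 0.22. Mitotic entry and exit genes had 0.08 (10 of 15 higher) and split, with 0 higher and 2 lower at that p: Ube2c, the ubiquitin-conjugating enzyme of the anaphase-promoting complex, differed by 0.54, and Cks1b, a small CDK-binding subunit, by -0.48. Ube2c read 4.01, 4.01 and 4.42 in wild-type and 4.85, 5.33 and 3.87 in Tet2-/- arrays, with replicate 5 on top and replicate 6 lowest as for Ccnb2. Cks1b read 5.66, 6.10 and 5.99 against 5.51, 5.47 and 5.32, with every Tet2-/- array below every wild-type array, as for 4.07% of all probe sets. The other gene lower at that p was Wee1, the kinase that holds Cdk1 inactive. Wee1, like Spc25 of the kinetochore, Ncaph of condensin and Racgap1 of cytokinesis, which were higher at that p, was named after its values were seen.

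The mean levels of several of 12 cell type lists were, like the mitotic genes, highest in Tet2-/- replicate 5 and next highest in replicate 4. Dendritic, natural killer, neutrophil, and erythroid and platelet lists were instead highest in Tet2-/- replicate 6. The mesothelial and stromal list was highest in wild-type replicate 6 and the eosinophil list in wild-type replicate 5. Mast cell genes had the order, but 6 of 8 were below the array median on every array. Over all probe sets, 49.2% had a positive difference, the share to read beside the counts below. Macrophage markers were bright, with list means of 8.77 to 9.13 in wild-type and 9.15, 9.30 and 8.47 in Tet2-/- replicates 4, 5 and 6. They split between genotypes, 3 of 6 higher and 3 lower, and not every gene had replicate 5 on top. The receptors Adgre1 and Csf1r, which did, were among the 3 higher. Genes of the resident large peritoneal macrophage had list means of 4.63 to 5.10 in wild-type and 5.91, 6.30 and 4.69 in the same replicates (10 of 11 higher). Among them Gata6, the factor that specifies that cell, differed by 0.35, its receptor for dying cells Timd4 by 0.56 and the lipoxygenase Alox15 by 2.08. Monocyte genes (5 of 5 higher) ran from 5.21 to 5.62 and stood at 6.20, 7.11 and 5.65, with Plac8 at a difference of 1.77. B-cell genes (9 of 9 higher) had list means of 2.59 to 2.75 in wild-type and 3.52, 4.23 and 2.74, Cd79a differing by 1.59 and Ms4a1 by 1.07. Of these 9, 2 were below the array median on every array, and Ms4a1 was above it on only 2 arrays. T-cell genes were not highest in replicate 5 (5 of 9 higher, 2.01 to 2.21 against 2.12, 2.03 and 2.23), and 7 of the 9 were below the array median on every array. The T-cell receptor chain Cd3e differed by 0.03. The part of these cells in the cell cycle values was not tested.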

How the data were processed

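Total RNA of 6 macrophage samples was hybridised to Affymetrix whole-transcript arrays. The deposited table holds log2 expression values computed by the authors. The submitters' processing notes list RMA and affy 1.36.1. The log2 scale was read from the values and that method. Whether the arrays were normalized together is not given in the sources used here. RMA compresses differences near background, and with 3 arrays per group their number limits the precision. A level depends on its probes, so differences were taken between arrays and not between genes. Where a gene or list is called low or bright, or placed against the array median, that is only a rough guide.

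Probe sets were named through the platform annotation (23185 of 25206 named, 2021 not), updated through RefSeq of GRCm38.p6, where 0 symbols changed. Limma 3.58.1 in R 4.3.3 (lmFit, eBayes, two-sided, no covariate) was fitted to all probe sets, with Benjamini-Hochberg adjustment and a threshold of 0.05. It was tested on simulated data. Lists were described by counts and medians, without a test.

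The members and lists were chosen with earlier results of these data known. Named were all members, the 2 genes of each other cell cycle list with the largest absolute difference, and cell type markers, given only where the text uses their list. Alternatives were the second genotype label, a replicate block, an intensity trend, array weights, centring, quantile normalization, brighter probe sets, other thresholds and class definitions, and leaving out each array. Sharing a replicate number did not pair arrays: deviations from the group means correlated at 0.15, -0.22 and 0.11 for numbers 4, 5 and 6.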

Additional observations from a re-analysis of the deposited data

How the results depend on the processing

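No member passed the adjusted threshold under any setting run, and the mitotic median stayed above zero under each, from 0.135 to 0.56. With array weights 2 probe sets of the whole array passed, and 0 to 19 when single arrays were left out. The gap between mitotic and replication medians was 0.12 to 0.44 with single arrays left out, and 4 to 8 of 9 replication members were then above zero. With the replicate number as a block 0 members passed, the mitotic median was 0.34 and 897 probe sets had an unadjusted p under 0.05, against 910 without it. Not every array correlated best with its own number.

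Under the second genotype label the mitotic median was 0.135 and the replication median 0.0033. The difference changed sign for 15 of the 39 members. Among the other named genes that were followed, 20 changed sign and 15 did not. At an unadjusted p under 0.05 (limma), 0 of 20 mitotic members were called, beside 0.639% of all probe sets higher and 1% lower. That label put Kif20a, Cenpf, Mcm2, Mcm3, Mcm5, Mcm6, Rrm2 and Pcna at -0.043, -0.053, -0.09, 0.0033, -0.07, -0.0067, -0.15 and 0.11. It put Tyms, Ccne1, Ccne2, E2f1, Ccnd2, Ccnd3, Cdkn1a and Gins1 at 0.17, 0.057, 0.31, -0.063, -0.043, -0.38, -0.043 and -0.23. It put Pold1, Uhrf1, Asf1b, Cenpa, Espl1, Cdca5, Kif2c and Plk4 at -0.11, -0.083, -0.17, -0.13, -0.30, -0.057, -0.17 and -0.14. It put Anln, Cks1b, E2f3, Tfdp2, Phlda3, Topbp1, Adgre1 and Csf1r at -0.043, 0.36, -0.09, -0.17, -0.10, -0.0033, -0.0067 and -0.01. It put Gata6, Timd4 and Alox15 at -0.087, -0.033 and -0.23.
Cdc20 was at -0.005 with median-centred arrays. With array weights, Mcm3 was at 0.13 and Cd3e at -0.083. Leaving out single arrays turned the sign of Mki67 (-0.072 to 0.61), Cdk1 (-0.03 to 0.36), Aurkb (-0.063 to 0.48), Cdc20 (-0.07 to 0.10), Ttk (-0.057 to 0.14), Mcm2 (-0.12 to 0.30), Mcm3 (-0.33 to 0.17), Mcm4 (-0.035 to 0.26), Rrm1 (-0.02 to 0.48), Tyms (-0.14 to 0.14), Ccnd2 (-0.11 to 0.17), Cdkn1a (-0.093 to 0.23), Asf1b (-0.057 to 0.52), Topbp1 (-0.0033 to 0.43) and Cd3e (-0.082 to 0.19). Without Tet2-/- replicate 6, Alox15 (2.97, limma adjusted p = 0.0394) and Cd79a (2.22, adjusted p = 0.0307) passed. Array weights gave that array 0.297, against 1.02 to 1.65 for the other 5. The cause of these shifts was not tested.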
